A study of Arabidopsis with 12 samples.

Results

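The glutathione S-transferase genes of Arabidopsis were followed in seedlings of a double mutant and of wild type (WT), at a control point and 3 days after heat. Members were all rows of the expression table whose gene description holds the words glutathione S-transferase in any case, apart from 2 rows that are not analysed here. This gave 56 genes of 37825. By name, 27 belong to the tau class, 12 to the phi class and 17 to neither.

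Glutathione S-transferases join the tripeptide glutathione to reactive or foreign molecules, which marks the product for transport into the vacuole. Some members instead bind ligands, reduce organic hydroperoxides or isomerise metabolites. Tau and phi are the large plant classes, known for their induction by herbicides, oxidative stress and stress hormones, whereas the theta, zeta and lambda classes are small and include members with roles in primary metabolism.

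The 17 other members were 3 theta genes, 2 zeta genes, the lambda gene GSTL3, the microsomal transferase AT1G65820, the TCHQD gene AT1G77290, 4 genes akin to bacterial glutathionyl-hydroquinone reductases (AT4G19880, AT5G44000, AT5G44990 and AT5G45020), AT5G42150, which the table matches to a fish prostaglandin E synthase, the gene AT1G19550 and the short gene AT4G08270. They also held eEF-1Bb1 and AT5G12110, which encode the beta subunit of translation elongation factor EF1B. Both were taken up because their description names a glutathione S-transferase C-terminal domain, and they are not transferases.

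The 4 groups held 3 libraries each. They were the mac3a3b double mutant 3 days after heat (mutant 3 days), WT 3 days after heat (WT 3 days), the mac3a3b control (mutant control) and the WT control. All were whole seedlings grown on sucrose-containing MS medium, and the protocol names a temperature of 37 °C. No source used here gives the alleles, the WT accession, plant age or how long the heat lasted. Titles name the earlier point control, while the design text places it 0 hours after heat, so these plants may be unheated or freshly heated. No unheated seedlings of the later point are labelled, so a change between control and 3 days, called a response here, cannot be told apart from a change with age or growth. In bulk seedlings, fewer cells of a type and less RNA per cell cannot be told apart either. The labels do not say that the libraries of a group are separate cultures, so the p-values measure the spread between samples that may be technical repeats.

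Expression was given as TPM, a transcript's share of its library corrected for length, for which the read depth is unknown. The 12 libraries held 18310 to 21139 genes at 1 TPM or more. MAC3A was at 5.6 to 6.81 TPM in mutant 3 days, against 59.5 to 61.5 TPM in WT 3 days, and at 9.14 to 10.3 TPM in mutant control, against 33.4 to 35.8 TPM in WT control. MAC3B was at 8.77 to 9.81 TPM in mutant 3 days, against 128 to 137 TPM in WT 3 days, and at 9.89 to 10.7 TPM in mutant control, against 69.7 to 76.2 TPM in WT control. The tissue markers also moved with the groups. All 6 green tissue markers were detected in every group, and they summed to 4764 to 6347 TPM in mutant 3 days, 6190 to 8031 TPM in WT 3 days, 44093 to 46154 TPM in mutant control and 42522 to 43072 TPM in WT control. The 9 root markers summed to 37.1 to 54.8 TPM in mutant 3 days, where CASP2 and EXPA7 were listed at 0, to 187 to 278 TPM in WT 3 days, to 1708 to 1887 TPM in mutant control and to 2591 to 3000.4 TPM in WT control. The 4 vascular markers summed to 21.9 to 25.0 TPM in mutant 3 days, 278 to 356 TPM in WT 3 days, 165 to 191 TPM in mutant control and 172 to 192 TPM in WT control. In WT, XCP2 averaged 237 TPM at 3 days and 58.3 TPM at control, and XCP1 and APL also averaged higher at 3 days. SUC2 went the other way in WT, with 19.7 TPM at 3 days and 77.0 TPM at control. The 4 senescence markers summed to 46.4 to 62.4 TPM in mutant 3 days, 29.3 to 38.9 TPM in WT 3 days, 23.5 to 27.1 TPM in mutant control and 15.8 to 17.0 TPM in WT control, with SAG12 listed at 0 in all groups but WT 3 days. At 3 days only NYE1 averaged higher in the mutant, with 36.8 TPM against 13.0 TPM in WT. SAG13 averaged 0.06 TPM in mutant 3 days and 2.18 TPM in WT 3 days, and SAG101 averaged 15.6 and 17.9 TPM. The 4 seed markers summed to 5.18 to 6.13 TPM in mutant 3 days, 6.54 to 17.6 TPM in WT 3 days, 0.12 to 0.78 TPM in mutant control and 0.03 to 0.35 TPM in WT control. The part of these shifts in the results that follow was not tested.

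Summed over each class, phi transcripts stood lower at 3 days than at control, and those of the other classes higher, in both genotypes. Tau genes together made up 1206 ± 66.5 TPM in mutant 3 days, 1196 ± 76.3 TPM in WT 3 days, 1275 ± 68.8 TPM in mutant control and 1114 ± 18.6 TPM in WT control (SD, n = 3 libraries, as in all sums). Thus the tau total moved little on this scale, but with median-of-ratios scaling it averaged 1400 TPM in mutant 3 days and 940 TPM in WT 3 days. Phi genes together made up 813 ± 94.1 TPM in mutant 3 days, 1161 ± 91.2 TPM in WT 3 days, 1602 ± 79.0 TPM in mutant control and 2018 ± 112 TPM in WT control. The 4 groups of phi sums did not overlap, although with median-of-ratios scaling mutant 3 days (942 TPM) no longer lay below WT 3 days (913 TPM). The other classes made up 1840.2 ± 20.7 TPM in mutant 3 days, 2910 ± 81.6 TPM in WT 3 days, 931 ± 24.9 TPM in mutant control and 981 ± 8.43 TPM in WT control. Of these totals, the EF1B genes held 712 ± 5.56 TPM in mutant 3 days, 1633 ± 84.1 TPM in WT 3 days, 382 ± 17.9 TPM in mutant control and 408 ± 11.02 TPM in WT control. Without them, the other classes stood at 1128 ± 24.0 TPM in mutant 3 days, 1277 ± 37.0 TPM in WT 3 days, 549.7 ± 28.9 TPM in mutant control and 573 ± 6.61 TPM in WT control. No test was made of sums.

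**Figure D1:**
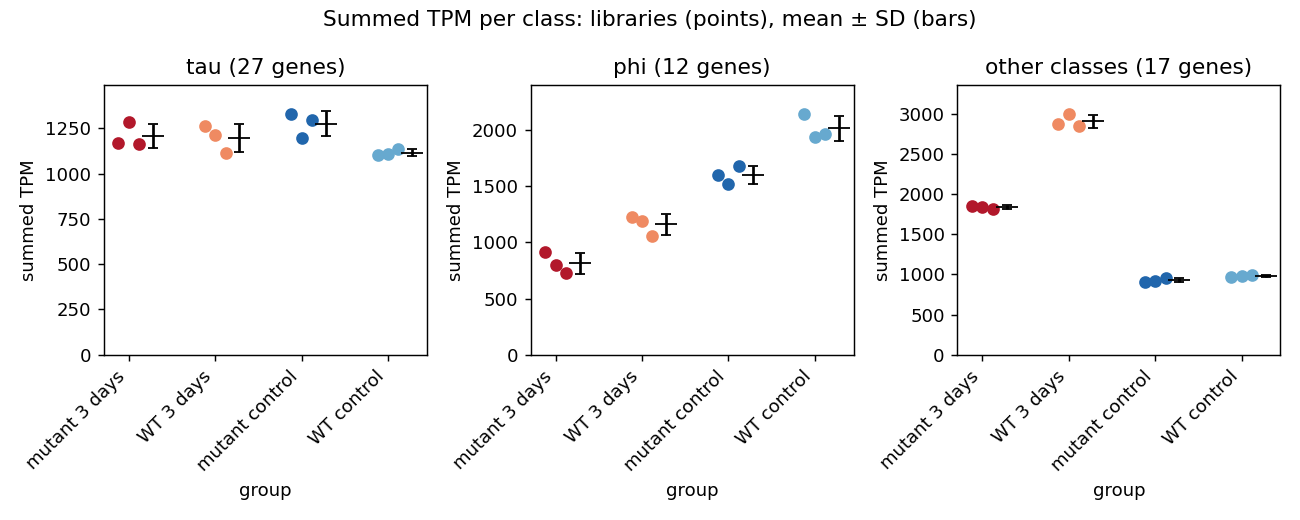
Summed TPM of the tau, phi and other classes in each library (points), with the mean and SD of each group beside them. Phi sums average 813 TPM in mutant 3 days and 1161 TPM in WT 3 days, below both controls, whereas the other classes reach 2910 TPM in WT 3 days.

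A few genes set these sums. GSTU19 supplied 65.2% of tau TPM in mutant 3 days, 64.5% in WT 3 days, then 46.5% in mutant control and 56.3% in WT control. The other 26 tau genes together made up 419 ± 29.4 TPM in mutant 3 days and 425 ± 35.3 TPM in WT 3 days, and 682 ± 43.2 TPM in mutant control against 488 ± 12.2 TPM in WT control. Hence the higher tau total of mutant control lay in genes other than GSTU19. In the phi class the leading gene changed over time. GSTF9 led at control, with 58.6% of phi TPM in mutant control and 46.2% in WT control, and GSTF10 led at 3 days, with 54.3% in mutant 3 days and 47.3% in WT 3 days.

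Single genes were tested with limma on log2(TPM + 1), over the 22462 genes that reached 1 TPM in at least 3 libraries, with Benjamini-Hochberg adjusted p-values over all of them. A gene was called at an adjusted p under 0.05, and changes are log2 differences ± SE. Of the 56 members, 46 passed the filter. The 10 that did not were GSTU11, GSTU12, GSTU15, GSTU21, GSTF3, GSTF5, GSTZ2, AT5G44990, AT1G19550 and AT4G08270. The last of these was listed at 0 in all 12 libraries, and the highest value among the others was 1.62 TPM, for GSTU11 in a WT 3 days library.

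Large shares of all genes were called, so the members' counts are read against that background. Between the genotypes at 3 days, 11 members were higher and 25 lower in the mutant, while 24.1% of all tested genes were higher and 58.7% lower. Their median difference was -0.36, against -0.51 over all genes. Between the genotypes at control, 14 members were higher and 11 lower in the mutant, while 30.3% of all genes were higher and 19.2% lower. This median was -0.0021, against 0.06 over all genes. In WT, 19 members were higher and 18 lower at 3 days than at control, while 54.9% of all genes were higher and 26.4% lower. The median response was 0.03, against 0.39 over all genes. In the mutant, 15 members were higher and 26 lower at 3 days, while 39.4% of all genes were higher and 46.5% lower. The median response here was -0.51, against -0.13 over all genes. The response of the mutant exceeded that of WT for 9 members and fell short of it for 23, while 20.6% of all genes were called in the first direction and 56.3% in the second.

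Changes of at least 2-fold were counted as well. Between the genotypes at 3 days, 5 members were higher and 15 lower in the mutant by that much, against 8.1% and 32.7% of all genes. At control, 4 were higher and 2 lower, against 2.56% and 3.08% of all genes. The WT response reached 2-fold upward in 11 members and downward in 15, against 26.2% and 11.5% of all genes. In the mutant 7 members rose and 17 fell by that much, against 22.1% and 29.8% of all genes. The difference of responses reached 2-fold upward in 5 members and downward in 16, against 8.12% and 33.9% of all genes.

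These splits changed with the scaling. With median-of-ratios scaling, the median over all genes became -0.061 for mutant against WT at 3 days, 0.0019 for the WT response and -0.019 for the difference of responses. The member counts then became 20 higher and 18 lower for mutant against WT at 3 days, 12 and 16 at control, 14 and 27 for the WT response, 15 and 23 for the mutant response and 19 and 15 for the difference. Quantile normalization gave 21 and 17, 12 and 14, 15 and 23, 15 and 25, and 19 and 13 in the same order. Of the members called with the deposited scale, 28 of 36 at 3 days, 25 of 25 at control, 34 of 37 for the WT response, 39 of 41 for the mutant response and 27 of 32 for the difference of responses had the same direction under both alternatives. Both genotype comparisons and both responses share libraries, and are set side by side below without a test of their likeness.

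**Figure D2:**
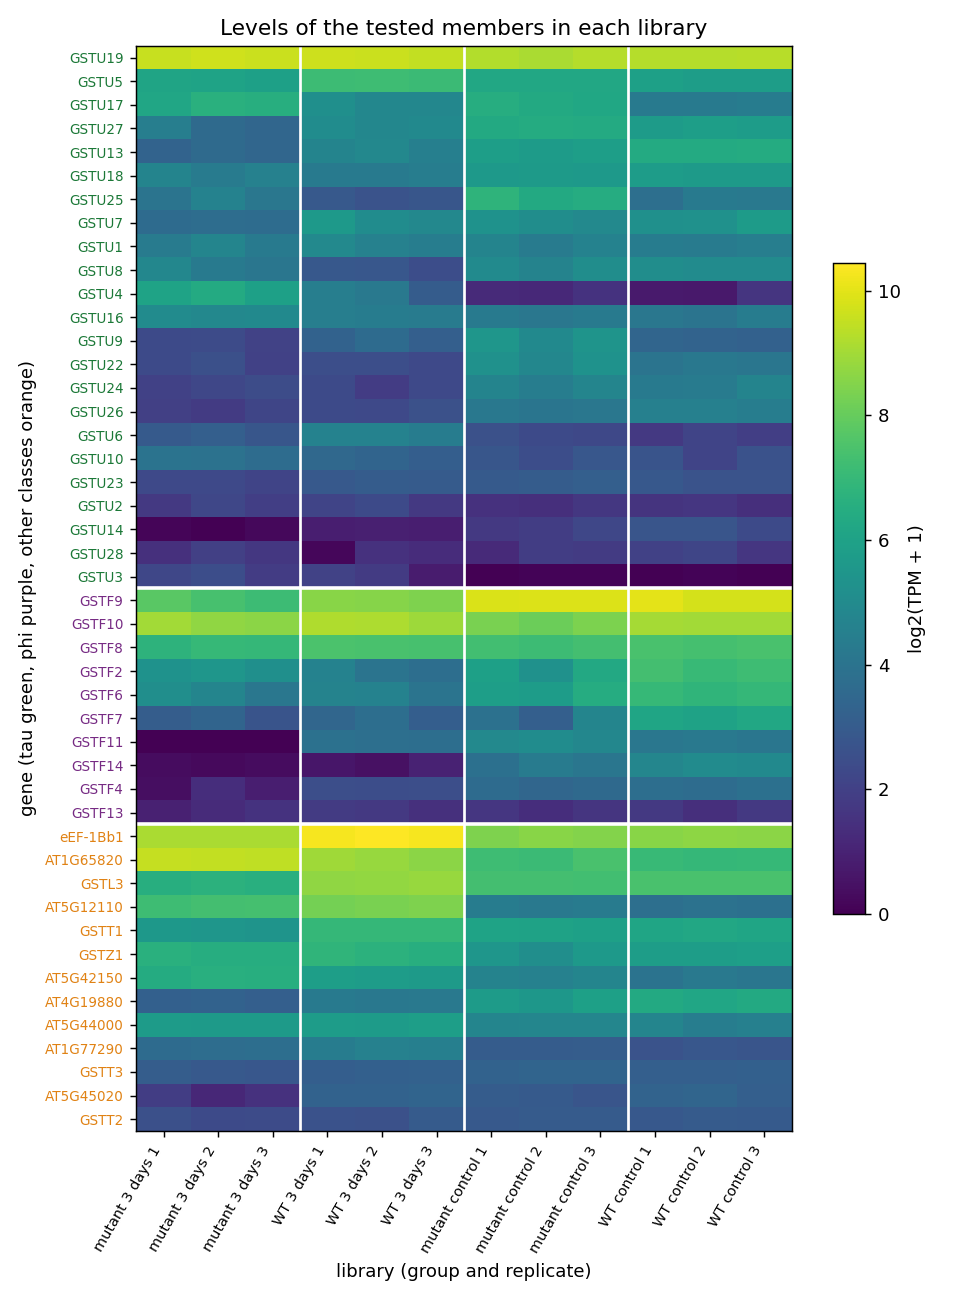
Level of each of the 46 tested members in each of the 12 libraries, as log2(TPM + 1), ordered within the tau, phi and other classes by mean TPM. GSTU19, GSTF9, GSTF10 and eEF-1Bb1 are bright in all libraries, while GSTF11 is at 0 in mutant 3 days alone and GSTU3 near 0 in both controls.

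The tau class held both the steadiest and some of the most divergent members. Of its 23 tested genes, 8 were higher and 9 lower in the mutant at 3 days (12 and 8 under median-of-ratios scaling, 13 and 5 after quantile normalization), and 8 were higher and 3 lower in the mutant at control. In WT, 10 rose and 10 fell by 3 days (5 and 14, and 6 and 11, under the same alternatives), and in the mutant 7 rose and 13 fell. Shares over all tested genes, in the same order, were 24.1% and 58.7%, 30.3% and 19.2%, 54.9% and 26.4%, and 39.4% and 46.5%. GSTU19, the most abundant, was at 756, 832 and 772 TPM in mutant 3 days and 803, 786 and 724 TPM in WT 3 days, and at 604, 559 and 615 TPM in mutant control and 620.4, 626 and 634 TPM in WT control. The genotypes overlapped at 3 days, and both 3 day groups lay above both controls. GSTU19 responded by 0.41 ± 0.057 in the mutant (adjusted p = 2.98e-05) and by 0.30 ± 0.057 in WT (adjusted p = 0.00047), where it reversed to -0.16 with median-of-ratios scaling. On the deposited scale its difference between the genotypes was not called at 3 days (0.03 ± 0.057) or at control (-0.08 ± 0.057). With median-of-ratios scaling GSTU19 was called higher in the mutant at 3 days (0.59, adjusted p = 2.31e-06) and lower at control (-0.17, adjusted p = 0.0434). Quantile normalization called neither (-0.10 at 3 days, -0.16 at control).

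The tau genes GSTU7 to GSTU1 lie in a row on chromosome 2, and neighbours in it behaved differently. This array of 7 members spans 10 places in the order of protein-coding genes. Members of such arrays can be alike in sequence, and RSEM may divide reads between near-identical copies, so their values are uncertain to that extent. GSTU4 was at 65.0, 81.5 and 59.97 TPM in mutant 3 days and 21.0, 17.7 and 7.19 TPM in WT 3 days, against 1.36, 1.32 and 1.92 TPM in mutant control and 0.71, 0.66 and 2.07 TPM in WT control. All 3 day libraries lay above all controls, and mutant 3 days above WT 3 days. GSTU4 rose by 4.78 ± 0.34 in the mutant (adjusted p = 5.29e-08) and by 2.87 ± 0.34 in WT (adjusted p = 7.91e-06), a difference of responses of 1.91 ± 0.48 (adjusted p = 0.00324). GSTU4 was higher in the mutant at 3 days by 2.21 ± 0.34 (adjusted p = 7.22e-05). At control the genotypes overlapped and the gene was not called (0.29 ± 0.34).

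GSTU5 and GSTU6, on one side of it, rose in WT, whereas in the mutant GSTU6 rose less and GSTU5 did not rise. GSTU6 was at 6.7, 7.88 and 5.91 TPM in mutant 3 days and 24.1, 23.9 and 19.9 TPM in WT 3 days, against 5.02, 4.06 and 3.78 TPM in mutant control and 2.29, 3.36 and 2.84 TPM in WT control. Its response was 0.57 ± 0.14 in the mutant and 2.63 ± 0.14 in WT, with a difference of -2.06 ± 0.19 (adjusted p = 1.31e-06), and at 3 days it was lower in the mutant (-1.60 ± 0.14, adjusted p = 3.83e-07). GSTU5, second among tau genes in WT 3 days, was at 68.3, 66.5 and 59.6 TPM in mutant 3 days and 143, 145 and 139.97 TPM in WT 3 days, against 76.0, 75.3 and 75.0 TPM in mutant control and 60, 55.8 and 55.5 TPM in WT control. It rose by 1.31 ± 0.051 in WT (adjusted p = 4.85e-10) and fell by 0.22 in the mutant (SE 0.051, adjusted p = 0.00182). Median-of-ratios scaling ended the call in the mutant (-0.031, adjusted p = 0.552), whereas the difference of responses stayed called, at -1.52 ± 0.073 with the deposited scale and -0.89 with that scaling. At control GSTU5 was higher in the mutant by 0.40 ± 0.051 (adjusted p = 7.85e-05).

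GSTU7, at the end of the row, was low in mutant 3 days alone. It stood at 11.7, 12.3 and 12.1 TPM in mutant 3 days and 48.1, 33.1 and 28.6 TPM in WT 3 days, against 38.8, 33.6 and 29.0 TPM in mutant control and 36.6, 38.4 and 51.7 TPM in WT control. The other 3 groups overlapped. GSTU7 was lower in the mutant at 3 days (-1.496 ± 0.18, adjusted p = 8.46e-06) and was not called at control (-0.31 ± 0.18). GSTU3 was at 2.64 to 4.61 TPM in mutant 3 days and 0.75 to 3.12 TPM in WT 3 days, against 0 to 0.06 TPM in each control group. GSTU1 and GSTU2, at the far end, overlapped between the genotypes at both points, and GSTU1 was called in no comparison on the deposited scale. With median-of-ratios scaling GSTU1 was called higher in the mutant at 3 days (0.36, adjusted p = 0.0369).

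**Figure D3:**
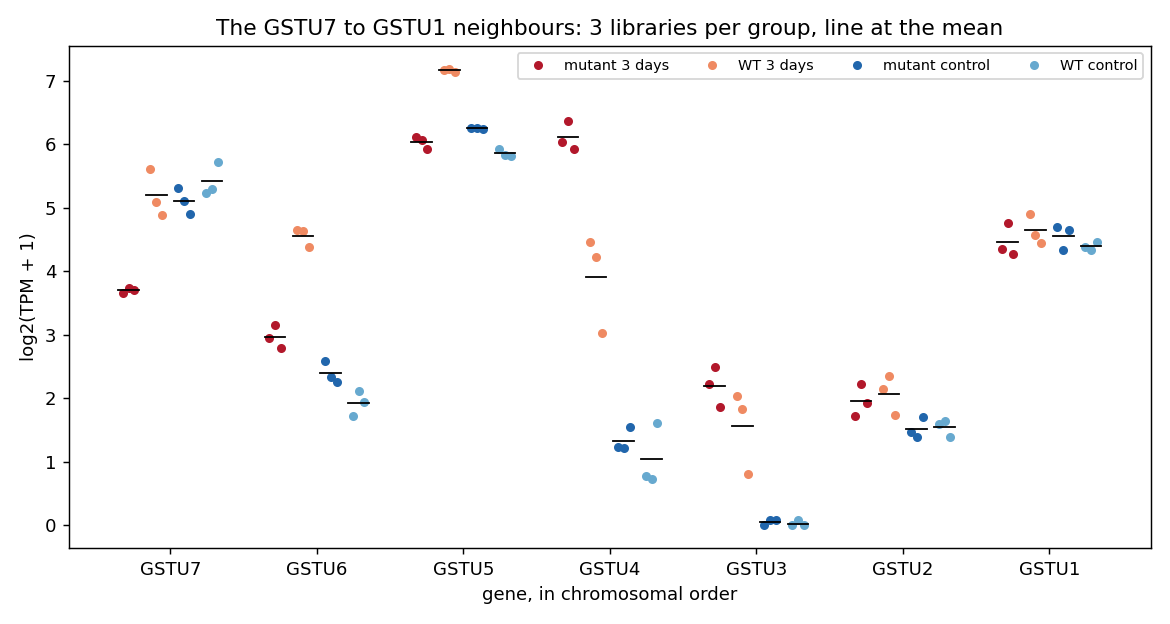
Levels of the 7 neighbouring tau genes GSTU7 to GSTU1, as log2(TPM + 1), with 3 libraries per group as points and the group mean as a line. GSTU4 and GSTU3 are higher in both 3 day groups than in the controls, GSTU6 and GSTU5 are highest in WT 3 days and GSTU7 is low in mutant 3 days.

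A second row, GSTU24, GSTU25 and GSTU26 on chromosome 1, differed between the genotypes mainly in its middle gene on the deposited scale. GSTU24 and GSTU25 encode enzymes known to conjugate the explosive TNT. GSTU25 was at 15.1, 24.2 and 16.8 TPM in mutant 3 days and 6.52, 5.3 and 5.9 TPM in WT 3 days, and at 110.3, 80.8 and 88.6 TPM in mutant control, against 13.3, 18.3 and 17.6 TPM in WT control. The mutant was above WT without overlap at both points, by 1.49 ± 0.17 at 3 days (adjusted p = 7.04e-06) and 2.44 ± 0.17 at control (adjusted p = 1.01e-06). This difference at control was the largest of any member called higher there. GSTU24 was called at neither point on that scale (0.06 ± 0.16 at 3 days, 0.17 ± 0.16 at control). At 3 days it was called higher in the mutant with median-of-ratios scaling (0.49, adjusted p = 0.0126) and quantile normalization (1.04, adjusted p = 0.000137). GSTU26 was lower in the mutant at 3 days (-0.44 ± 0.1, adjusted p = 0.00211) and at control (-0.36 ± 0.1, adjusted p = 0.0135). At 3 days GSTU26 turned to 0.0014 with median-of-ratios scaling and to 0.55 (adjusted p = 0.00102) after quantile normalization. All 3 fell by 3 days in both genotypes. The response was -2.27 ± 0.17 in the mutant and -1.32 ± 0.17 in WT for GSTU25, -2.40 ± 0.16 in the mutant and -2.29 ± 0.16 in WT for GSTU24, and -2.15 ± 0.1 in the mutant and -2.07 ± 0.1 in WT for GSTU26.

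The adjacent pair GSTU18 and GSTU17 split in a like way. GSTU17, also called ERD9 for its early response to dehydration, was at 72.5, 98.0 and 92.9 TPM in mutant 3 days and 35.4, 27.7 and 27.9 TPM in WT 3 days, and at 89.5, 80.9 and 74.8 TPM in mutant control, against 18.3, 18.7 and 20.2 TPM in WT control. It was higher in the mutant by 1.501 ± 0.12 at 3 days (adjusted p = 2.32e-07) and by 2.04 ± 0.12 at control (adjusted p = 2.75e-07). In the mutant its controls and 3 day libraries overlapped (0.09 ± 0.12), and its rise in WT (0.63 ± 0.12) was not called after median-of-ratios scaling (0.20, adjusted p = 0.182) or quantile normalization (0.26, adjusted p = 0.0612). GSTU18 was at 19.1 to 25.1 TPM in mutant 3 days and 18.2 to 20.3 TPM in WT 3 days, and at 47.3 to 50.8 TPM in mutant control and 50.5 to 53.8 TPM in WT control, with the genotypes overlapping at both points. It was called higher in the mutant at 3 days (0.22 ± 0.083, adjusted p = 0.0309) and not at control (-0.10 ± 0.083). The difference of GSTU18 at 3 days was larger with median-of-ratios scaling (0.75, adjusted p = 3.18e-06) and quantile normalization (0.61, adjusted p = 7.88e-06).

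Among other tau genes, 4 were higher in mutant control. GSTU9 was at 4.15, 4.19 and 3.21 TPM in mutant 3 days and 8.82, 11.7 and 7.98 TPM in WT 3 days, and at 44.6, 30.4 and 41.4 TPM in mutant control, against 9.66, 9.08 and 8.39 TPM in WT control. It was thus highest in mutant control and lowest in mutant 3 days, while the WT groups overlapped. GSTU9 was higher in the mutant by 1.97 ± 0.16 at control (adjusted p = 2.23e-06) and fell by 3.02 in the mutant by 3 days (SE 0.16), against 0.05 ± 0.16 in WT. Its difference of responses was -3.07 ± 0.22 (adjusted p = 1.62e-07). At 3 days GSTU9 was lower in the mutant (-1.11 ± 0.16, adjusted p = 3.86e-05), which was not called after quantile normalization (-0.19, adjusted p = 0.283). GSTU22 was at 3.04 to 4.87 TPM in mutant 3 days and 3.94 to 4.77 TPM in WT 3 days, and at 37.7, 27.2 and 39.4 TPM in mutant control, against 15.1, 17.1 and 16.0 TPM in WT control. This gene was higher in the mutant at control by 1.05 ± 0.15 (adjusted p = 0.000177) and overlapped between the genotypes at 3 days, after a fall of -2.83 ± 0.15 in the mutant (adjusted p = 4.16e-09). GSTU27 was higher in mutant control by 0.61 ± 0.2 (adjusted p = 0.0247), a call that ended when mutant control 1, 2 or 3 or WT control 1 or 3 was left out (adjusted p up to 0.065), and it fell in the mutant by 3 days (-2.54 ± 0.2, adjusted p = 1.38e-07). GSTU23 was higher there by 0.34 ± 0.086 (adjusted p = 0.00656).

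GSTU8 kept more of its control level in the mutant. It was at 27.4, 18.9 and 16.0 TPM in mutant 3 days and 6.36, 6.2 and 4.56 TPM in WT 3 days, and at 30.9, 24.2 and 33.5 TPM in mutant control and 33.7, 31.6 and 32.0 TPM in WT control. The genotypes overlapped at control and not at 3 days, where GSTU8 was higher in the mutant by 1.67 ± 0.18 (adjusted p = 3.17e-06). The fall in WT was -2.33 ± 0.18 (adjusted p = 1.72e-07). Lower levels in the mutant at both points were seen for GSTU13, a gene linked to indole glucosinolate metabolism, which was at 9.08 to 11.2 TPM in mutant 3 days and 22.0 to 28.2 TPM in WT 3 days, and at 52.3 to 57.3 TPM in mutant control and 83.2 to 84.1 TPM in WT control. Its differences were -1.25 ± 0.087 at 3 days (adjusted p = 7.06e-08) and -0.58 ± 0.087 at control (adjusted p = 0.000217).

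GSTU10 and GSTU16 rose by 3 days in the mutant, while GSTU14 fell in both genotypes. GSTU10 was at 14.6, 14.3 and 11.95 TPM in mutant 3 days and 10.4, 9.46 and 7.63 TPM in WT 3 days, and at 6.04, 4.57 and 6.2 TPM in mutant control and 5.53, 3.42 and 5.16 TPM in WT control. It rose in the mutant (1.15 ± 0.16, adjusted p = 3.37e-05) and in WT (0.85 ± 0.16, adjusted p = 0.000479). GSTU16 was at 28.7 to 31.6 TPM in mutant 3 days and 19.3 to 21.1 TPM in WT 3 days, with both controls at 20.0 TPM or less. It rose in the mutant (0.72 ± 0.085, adjusted p = 6.69e-06), while its small rise in WT (0.21 ± 0.085, adjusted p = 0.0378) turned to -0.22 with median-of-ratios scaling and -0.20 after quantile normalization. GSTU14 was at 0.09, 0 and 0.17 TPM in mutant 3 days and 0.83, 0.89 and 0.85 TPM in WT 3 days, and at 2.31, 2.77 and 3.68 TPM in mutant control, against 5.78, 5.8 and 4.1 TPM in WT control. GSTU14 fell by 3 days in the mutant (-1.84 ± 0.15, adjusted p = 1.68e-07) and in WT (-1.73 ± 0.15, adjusted p = 4.1e-07). At 3 days it was lower in the mutant (-0.78 ± 0.15, adjusted p = 0.000395), which was not called after quantile normalization (-0.073, adjusted p = 0.702). At control it was lower in the mutant (-0.67 ± 0.15, adjusted p = 0.00278), and with a pseudocount of 0.1 this was not called (adjusted p = 0.0588).

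Phi members were mostly lower at 3 days than at control, and 5 of them were lower in the mutant at control. Of 10 tested phi genes, none rose and 7 fell in WT, with a median response of -1.32, against 0.39 over all genes. In the mutant 1 rose and 7 fell, with a median of -1.13, against -0.13 over all genes. Mutant against WT, 1 was higher and 7 lower at 3 days (3 and 3 under median-of-ratios scaling, 4 and 5 after quantile normalization), and 1 was higher, 5 were lower and 4 were not called at control. The fall in WT was called for 9 with median-of-ratios scaling and 8 with quantile normalization. Over all tested genes, 54.9% rose and 26.4% fell in WT, and 39.4% rose and 46.5% fell in the mutant. Mutant against WT, 24.1% of all tested genes were higher and 58.7% lower at 3 days, and 30.3% and 19.2% at control.

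The neighbours GSTF9 and GSTF10 on chromosome 2 changed places as the leading phi gene. GSTF9 was at 218, 167 and 144 TPM in mutant 3 days and 387, 372 and 343 TPM in WT 3 days, and at 939, 940.1 and 941 TPM in mutant control and 1035, 886 and 873 TPM in WT control. It fell in the mutant (-2.43 ± 0.12, adjusted p = 2.45e-09) and in WT (-1.34 ± 0.12, adjusted p = 9.1e-07), and the genotypes overlapped at control. GSTF10 was at 507, 417 and 401 TPM in mutant 3 days and 585, 575 and 488 TPM in WT 3 days, and at 320.15, 275 and 331 TPM in mutant control, against 519.6, 514 and 515 TPM in WT control. GSTF10 therefore exceeded GSTF9 in all 6 libraries at 3 days and stayed below it in all 6 controls. GSTF10 was lower in the mutant at control (-0.74 ± 0.099, adjusted p = 9.61e-05) and rose in the mutant by 3 days (0.51 ± 0.099, adjusted p = 0.000446), with no call in WT (0.09 ± 0.099). With median-of-ratios scaling its WT response was called lower (-0.37, adjusted p = 0.00196), while quantile normalization did not call it (0.13). At 3 days its libraries overlapped between the genotypes, and the difference of -0.32 ± 0.099 (adjusted p = 0.011) reversed to 0.24 with median-of-ratios scaling and was not called without mutant 3 days 3 (adjusted p = 0.0501).

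GSTF2, GSTF6 and GSTF7 were higher in WT control than in all libraries of the other 3 groups. GSTF6 acts in the synthesis of the defence compound camalexin, GSTF2 binds camalexin, and all 3 genes are known to be induced in defence. GSTF2 was at 38.6, 43.9 and 35.6 TPM in mutant 3 days and 23.7, 15.0 and 12.7 TPM in WT 3 days, and at 59.7, 38.2 and 79.0 TPM in mutant control, against 159, 131 and 146 TPM in WT control. So the mutant was above WT at 3 days and below it at control, without overlap at either point. The difference was 1.20 ± 0.25 at 3 days (adjusted p = 0.000813) and -1.34 ± 0.25 at control (adjusted p = 0.000954). GSTF2 fell by 3.05 in WT (SE 0.25, adjusted p = 2.91e-07) and was not called in the mutant (-0.52 ± 0.25, adjusted p = 0.0709), a difference of responses of 2.54 ± 0.35 (adjusted p = 4.13e-05). With quantile normalization the fall of GSTF2 in the mutant was called (-0.73, adjusted p = 0.0186).

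GSTF7 and GSTF6 lie side by side on chromosome 1. GSTF7 was at 7.39, 9.25 and 5.56 TPM in mutant 3 days and 9.8, 12.6 and 7.69 TPM in WT 3 days, and at 13.8, 7.99 and 26.2 TPM in mutant control, against 70.1, 64.4 and 76.5 TPM in WT control. GSTF6 was at 35.2, 25.8 and 16.6 TPM in mutant 3 days and 24.7, 23.8 and 15.3 TPM in WT 3 days, and at 57.6, 54.1 and 88.7 TPM in mutant control, against 128, 114 and 122 TPM in WT control. Both overlapped between the genotypes at 3 days and were lower in the mutant at control. At 3 days GSTF6 was called higher in the mutant with median-of-ratios scaling (0.78, adjusted p = 0.0114) and quantile normalization (0.60, adjusted p = 0.0375). In WT both genes fell by 3 days (-2.71 ± 0.33 for GSTF7, adjusted p = 9.17e-06, and -2.49 ± 0.26 for GSTF6, adjusted p = 2.92e-06). In the mutant GSTF7 fell by 0.89 (SE 0.33, adjusted p = 0.0225) and GSTF6 by 1.36 (SE 0.26, adjusted p = 0.000413). The fall of GSTF7 in the mutant was not called after quantile normalization (adjusted p = 0.166). The differences at control were -2.21 ± 0.33 for GSTF7 (adjusted p = 0.00019), the largest decrease of any member there, and -0.88 ± 0.26 for GSTF6 (adjusted p = 0.0153), which was not called when mutant control 1 or 2 was left out (adjusted p of 0.0537 and 0.06). Mutant control 3 was the highest of its group for all 3 genes. Reads of GSTF6 and GSTF7, and of GSTF2 and its near copy GSTF3, may have been divided between the copies, so their single values are uncertain.

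GSTF11, associated with glucosinolate synthesis, read 0, 0 and 0 TPM in mutant 3 days and 14.0, 13.1 and 12.7 TPM in WT 3 days. It stood at 28.8, 32.6 and 27.2 TPM in mutant control, against 16.5, 17.8 and 16.3 TPM in WT control. No fold is given against values listed at 0. At control GSTF11 was the only phi gene called higher in the mutant (0.77 ± 0.075, adjusted p = 8.9e-06). In WT it fell by 0.32 (SE 0.075, adjusted p = 0.0018).

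Of the remaining phi genes, GSTF14 nearly disappeared at 3 days, with 0.27, 0.19 and 0.26 TPM in mutant 3 days and 0.53, 0.4 and 1.02 TPM in WT 3 days, and 13.4, 19.3 and 16.0 TPM in mutant control, against 26.7, 31.5 and 30.5 TPM in WT control. Its fall was -3.78 ± 0.15 in the mutant (adjusted p = 2.46e-10) and -4.23 ± 0.15 in WT (adjusted p = 2.03e-10), and at control it was lower in the mutant (-0.84 ± 0.15, adjusted p = 0.000732). GSTF4 was at 0.3 to 1.58 TPM in mutant 3 days and 4.55 to 4.64 TPM in WT 3 days, with a difference of -1.61 ± 0.19 (adjusted p = 7.14e-06), and it fell in the mutant (-2.68 ± 0.19, adjusted p = 5e-08). GSTF8, whose promoter is a known early reporter of oxidative and salicylic acid signals, stayed between 107 and 179 TPM throughout. It was at 107, 128 and 125 TPM in mutant 3 days and 179, 174 and 171 TPM in WT 3 days, and at 155, 144 and 158 TPM in mutant control and 174, 166 and 173 TPM in WT control. Its difference at 3 days (-0.54 ± 0.063, adjusted p = 7.29e-06) was lost with median-of-ratios scaling, where it was 0.017. On the deposited scale WT showed no called response (0.03 ± 0.063). The WT response was called lower with median-of-ratios scaling (-0.42, adjusted p = 0.000228) and quantile normalization (-0.23, adjusted p = 0.0026).

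**Figure D4:**
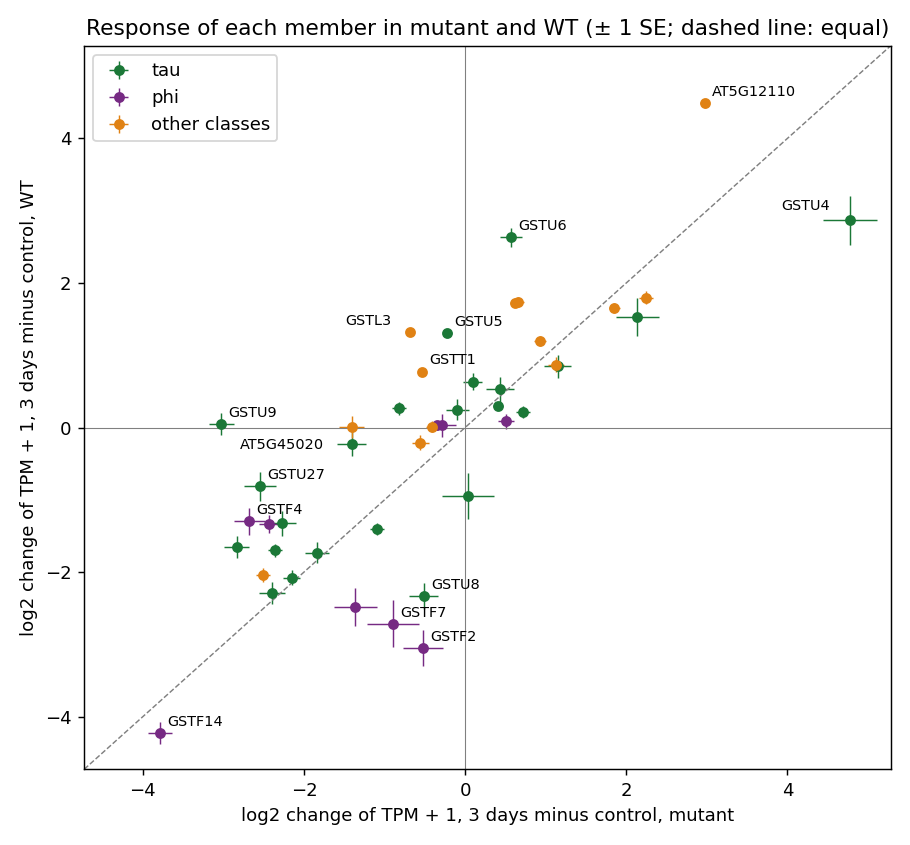
Response of each tested member in the mutant (x axis) and in WT (y axis), as the log2 change of TPM + 1 between 3 days and control, with 1 SE either way and a dashed line of equal responses. GSTF11, listed at 0 in mutant 3 days, is left out. GSTF2, GSTF7 and GSTU8 fell more in WT and lie below the line, as does GSTU4, while GSTU9, GSTU6, GSTL3 and GSTU5 lie above it.

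Members outside tau and phi mostly rose in WT. Of 13 tested, 9 rose and 1 fell in WT (9 and 4 with either other scaling), with a median of 1.20 against 0.39 over all genes. The 9 include both EF1B genes, and 54.9% of all tested genes were higher and 26.4% lower in this comparison. In the mutant 7 rose and 6 fell, while 39.4% of all tested genes were higher and 46.5% lower. The median here was 0.62, against -0.13 over all genes. Mutant against WT, 2 were higher and 9 lower at 3 days (5 and 7 under median-of-ratios scaling, 4 and 7 after quantile normalization), and 5 were higher and 3 lower at control (3 and 6, and 3 and 5, under the same alternatives). Of all tested genes, 24.1% were higher and 58.7% lower at 3 days, and 30.3% and 19.2% at control. The microsomal transferase AT1G65820, of a membrane family unrelated in fold to the soluble enzymes, was at 743, 709 and 702 TPM in mutant 3 days and 490.15, 454 and 393 TPM in WT 3 days, and at 145, 137 and 173 TPM in mutant control and 131, 122 and 128 TPM in WT control. It rose without overlap in both genotypes, by 2.24 ± 0.091 in the mutant (adjusted p = 3.03e-10) and 1.80 ± 0.091 in WT (adjusted p = 4.03e-09), and was higher in the mutant at 3 days (0.69 ± 0.091, adjusted p = 1.96e-05). Its call at control (0.25 ± 0.091, adjusted p = 0.0415) ended when any of 8 libraries was left out (adjusted p up to 0.167), with median-of-ratios scaling (adjusted p = 0.122) and with quantile normalization (adjusted p = 0.103).

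GSTL3, a lambda class protein known to bind flavonols and to reduce their glutathione conjugates, went opposite ways in the genotypes. It was at 93.6, 105 and 96.2 TPM in mutant 3 days and 415, 429 and 459 TPM in WT 3 days, and at 159.9, 159.8 and 155 TPM in mutant control and 172.5, 172.9 and 172.7 TPM in WT control. No groups overlapped, although the difference at control was not called on the deposited scale (-0.12 ± 0.049, adjusted p = 0.0558). It was called with median-of-ratios scaling (-0.21, adjusted p = 0.0152) and quantile normalization (-0.14, adjusted p = 0.0458). GSTL3 fell in the mutant (-0.68 ± 0.049, adjusted p = 6.63e-08) and rose in WT (1.32 ± 0.049, adjusted p = 3.12e-10), and at 3 days it was lower in the mutant (-2.13 ± 0.049, adjusted p = 1.3e-11).

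The theta genes GSTT1, GSTT3 and GSTT2 are adjacent on chromosome 5, and theta enzymes can reduce organic hydroperoxides. GSTT1 was at 46.0, 43.4 and 41.3 TPM in mutant 3 days and 123, 124 and 122 TPM in WT 3 days, and at 65.2, 64.7 and 60.5 TPM in mutant control and 69.0, 75.7 and 70.1 TPM in WT control. Like GSTL3 it fell in the mutant (-0.53 ± 0.051, adjusted p = 9.16e-07) and rose in WT (0.77 ± 0.051, adjusted p = 4.12e-08), and it was lower in the mutant at 3 days (-1.48 ± 0.051, adjusted p = 1.74e-10). Its call at control (-0.17 ± 0.051, adjusted p = 0.0158) ended without mutant control 3 or WT control 2 (adjusted p of 0.067 and 0.0695). GSTT3 and GSTT2 ranged from 6.1 to 7.51 TPM and from 4.03 to 4.83 TPM in mutant 3 days, and from 7.8 to 8.35 TPM and from 4.99 to 6.96 TPM in WT 3 days. Their differences at 3 days (-0.25 ± 0.074 for GSTT3, -0.32 ± 0.11 for GSTT2) reversed with both other scalings, and that of GSTT2 was not called without mutant 3 days 2 or WT 3 days 3.

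GSTZ1, the maleylacetoacetate isomerase of tyrosine breakdown, was at 98.2, 90.9 and 89.7 TPM in mutant 3 days and 113, 104 and 94.0 TPM in WT 3 days, and at 43.4, 35.3 and 48.0 TPM in mutant control and 55.0, 55.1 and 58.3 TPM in WT control. It rose in both genotypes (1.13 ± 0.099 in the mutant, 0.87 ± 0.099 in WT), overlapped between them at 3 days and was lower in the mutant at control (-0.41 ± 0.099, adjusted p = 0.00472). AT5G42150 was at 84.9, 94.4 and 92.2 TPM in mutant 3 days and 56.7, 53.3 and 50.4 TPM in WT 3 days, and at 24.5, 22.9 and 25.7 TPM in mutant control and 14.9, 17.5 and 16.3 TPM in WT control. The mutant was higher without overlap at both points, by 0.75 ± 0.07 at 3 days (adjusted p = 8.88e-07) and 0.56 ± 0.07 at control (adjusted p = 5.89e-05). AT5G42150 rose by 1.85 ± 0.07 in the mutant and by 1.66 ± 0.07 in WT. AT1G77290 rose in both genotypes, by 0.66 ± 0.07 in the mutant and 1.74 ± 0.07 in WT, and was at 11.5 to 12.5 TPM in mutant 3 days, against 19.7 to 23.0 TPM in WT 3 days.

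The genes akin to glutathionyl-hydroquinone reductases did not move together. AT4G19880 was at 8.16, 8.79 and 8.08 TPM in mutant 3 days and 18.8, 17.3 and 17.7 TPM in WT 3 days, and at 52.2, 44.9 and 60.4 TPM in mutant control, against 79.6, 70.8 and 80.4 TPM in WT control. It fell in both genotypes (-2.51 ± 0.093 in the mutant, -2.04 ± 0.093 in WT) and was lower in the mutant at 3 days (-1.02 ± 0.093) and at control (-0.55 ± 0.093). AT5G44000 instead rose, to 50.5 to 52.3 TPM in mutant 3 days and 52.3 to 56.4 TPM in WT 3 days, against 25.7 to 27.1 TPM in mutant control and 20.5 to 26.2 TPM in WT control. Its response was 0.93 ± 0.072 in the mutant (adjusted p = 1.23e-07) and 1.20 ± 0.072 in WT (adjusted p = 1.72e-08). The call of AT5G44000 at control (0.20 ± 0.072, adjusted p = 0.04) ended with each of 8 libraries left out (adjusted p up to 0.159) and under both other scalings. AT5G45020 was at 2.73, 1.27 and 1.79 TPM in mutant 3 days, against 8.79, 8.66 and 9.22 TPM in WT 3 days (-1.78 ± 0.15, adjusted p = 4.53e-07). On the deposited scale it was not called at control (-0.37 ± 0.15) or for the WT response. At control it was called lower in the mutant with median-of-ratios scaling (-0.45, adjusted p = 0.0317) and quantile normalization (-0.46, adjusted p = 0.0295). Its WT response was called lower under both too (-0.40, adjusted p = 0.033, and -0.39, adjusted p = 0.036).

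Of the EF1B genes, AT5G12110 had the largest rise of any member in WT. It was at 145, 161 and 164 TPM in mutant 3 days and 309, 328 and 342 TPM in WT 3 days, and at 19.9, 17.9 and 19.5 TPM in mutant control and 13.1, 14.2 and 13.5 TPM in WT control. None of these groups overlapped. It rose by 2.97 ± 0.061 in the mutant (adjusted p = 1.09e-12) and by 4.49 ± 0.061 in WT (adjusted p = 1.39e-13). eEF-1Bb1 was at 561, 556 and 549 TPM in mutant 3 days and 1249, 1396 and 1273 TPM in WT 3 days, with 345 to 383 TPM in mutant control and 383 to 403 TPM in WT control. It rose by 0.62 ± 0.054 in the mutant and by 1.72 ± 0.054 in WT, and was lower in the mutant at 3 days (-1.23 ± 0.054, adjusted p = 1.11e-09).

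**Figure D5:**
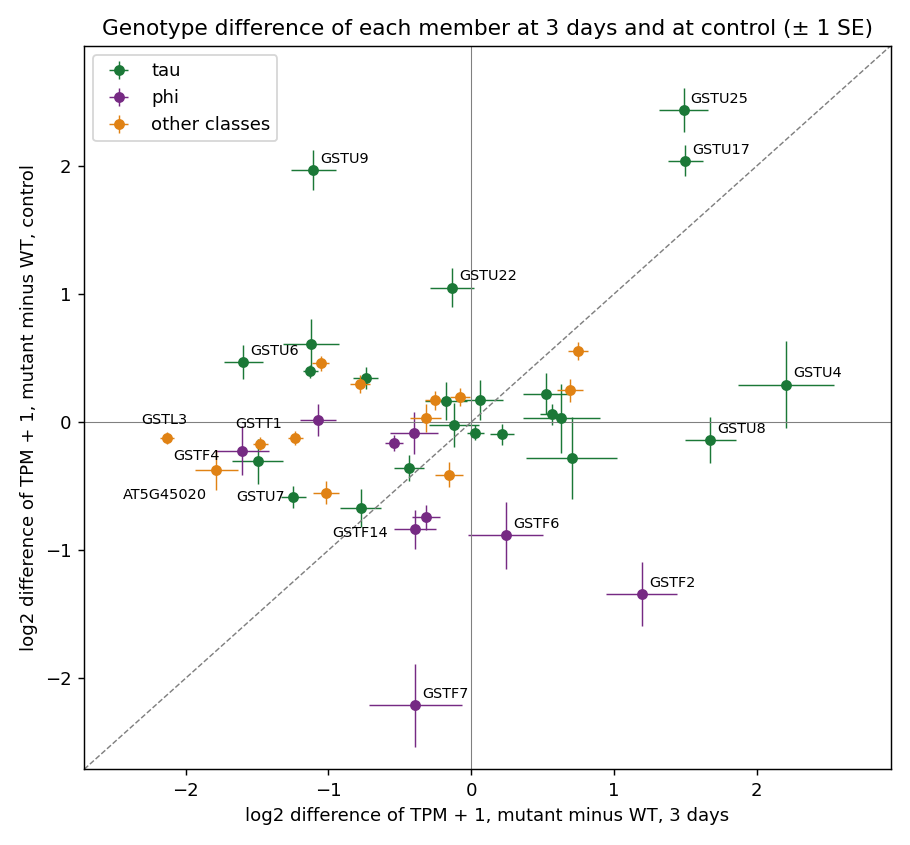
Difference between mutant and WT of each tested member at 3 days (x axis) and at control (y axis), as the log2 difference of TPM + 1 with 1 SE either way, and a dashed line of equal differences. GSTF11 is left out. GSTU25 and GSTU17 are higher in the mutant at both points, GSTU9 is higher at control and lower at 3 days, and GSTF2 is lower at control and higher at 3 days.

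Other genes of glutathione metabolism were counted for context. Among all tested genes, 24.1% were higher and 58.7% lower in the mutant at 3 days, and 30.3% and 19.2% at control. By 3 days 39.4% rose and 46.5% fell in the mutant, and 54.9% rose and 26.4% fell in WT. Of 7 genes of glutathione synthesis, reduction and transport, 1 was higher and 6 lower in the mutant at 3 days (2 and 4 with either other scaling), and 3 were higher and 3 lower at control. All 7 fell in the mutant, while 4 rose and 2 fell in WT (2 and 5 under median-of-ratios scaling, 3 and 4 after quantile normalization). GSH2, the glutathione synthetase, averaged 6.82 TPM in mutant 3 days and 38.4 TPM in WT 3 days, and 41.5 TPM in mutant control and 93.2 TPM in WT control. It was lower in the mutant at both points (-2.34 ± 0.089 at 3 days, -1.15 ± 0.089 at control) and fell in both genotypes. GR1, a glutathione reductase, averaged 132 TPM in mutant control against 64.1 TPM in WT control (1.03 ± 0.042). Of the 9 tested genes of glutathione breakdown and conjugate export, 1 was higher and 8 lower in the mutant at 3 days (2 and 7 with quantile normalization). ABCC3, a vacuolar pump of glutathione conjugates, averaged 40.5 TPM in mutant 3 days and 56.7 TPM in WT 3 days, and 62.6 TPM in mutant control against 10.4 TPM in WT control (2.48 ± 0.12 at control).

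The 7 tested glutathione peroxidases split, with 3 higher and 3 lower in the mutant at 3 days. GPX3 averaged 4.27 TPM in mutant 3 days and 73.4 TPM in WT 3 days (-3.85 ± 0.16), and GPX2 averaged 475 TPM in mutant 3 days and 240.3 TPM in WT 3 days (0.98 ± 0.073). All 3 sulfate reduction genes, which feed cysteine synthesis, were higher in the mutant at control and fell in the mutant by 3 days, among them APR1 (1.11 ± 0.053 at control, -1.84 ± 0.053 for the response). Of 12 genes of the TGA factor and xenobiotic response, which share inducers with many tau genes, 4 were higher and 7 lower in the mutant at 3 days, a split that turned to 8 and 2 under median-of-ratios scaling and 8 and 1 after quantile normalization. At control 6 were higher and 1 lower. OPR1 averaged 93.0 TPM in mutant 3 days and 43.9 TPM in WT 3 days (1.07 ± 0.12), and UGT74E2 averaged 11.8 TPM in mutant control and 3.16 TPM in WT control (1.73 ± 0.3).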

How the data were processed

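Oligo dT selected RNA of seedlings went into Illumina TruSeq libraries, per the labels' protocols. The submitters' processing notes name RSEM and the TAIR10 build. The aligner, versions and strand setting are not stated in the sources used here. TPM for 37825 genes in 12 libraries was deposited by the authors as 1 table, which keeps no depth. TPM is relative, so a few abundant transcripts that rise lower all others in that library. Columns were mapped to libraries by name, and the authors' group means were not used.

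All 56 members matched a locus of the RefSeq table (TAIR10.1), used for symbols and gene order only. Gene order was taken from the start coordinates, and no sequence was used. Replicates correlated at r of 0.982 to 0.989.

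Genes with at least 1 TPM in at least 3 libraries (22462) were fitted as log2(TPM + 1) by limma 3.58.1 in R 4.3.3, with 1 mean per group, a mean-variance trend and Benjamini-Hochberg adjustment. With 3 libraries against 3, the smallest two-sided p of an exact test is 0.1, so the spread was pooled over genes. The procedure was tested on simulated data. Statistics were given per comparison for the 6 strongest called increases and 6 strongest decreases among members with at least 5 TPM in the higher group (GSTF11 without a fold in mutant 3 days, where it is listed at 0), for the 3 most abundant members of each class, for all members outside tau and phi that were tested, and for array neighbours and GSTU13, GSTU16 and GSTU26, added after their values were seen. Members, lists and rules were chosen with earlier results of these data known. Alternatives were a pseudocount of 0.1, no filter, median-of-ratios scaling, quantile normalization, a replicate block, each library left out and, added after seeing the data, members without the EF1B genes.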

Additional observations from a re-analysis of the deposited data

Results flagged for a closer look

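For 13 members, the change between control and 3 days differed between the mutant and WT by limma's test of the difference of responses, and these are the members with the largest such differences in each direction or with called responses of opposite sign. The mutant response exceeded that of WT by 2.54 for GSTF2, 1.91 for GSTU4, 1.82 for GSTF7, 1.82 for GSTU8, 1.13 for GSTF6 and 0.51 for GSTU16 on the log2 scale. It fell short of that of WT for GSTU9 (-3.07), GSTU6 (-2.06), GSTL3 (-2.01), GSTU27 (-1.73), GSTU5 (-1.52), GSTT1 (-1.31) and GSTU23 (-1.08). Of these, GSTL3, GSTT1, GSTU5 and GSTU23 were called lower at 3 days in the mutant and higher in WT. With median-of-ratios scaling the fall of GSTU5 in the mutant was not called, and with both other scalings the rise of GSTU23 in WT reversed. That rise was also not called when either of 2 libraries was left out (adjusted p of 0.0524 and 0.0536). The difference of responses of GSTU23 itself was not called after quantile normalization (-0.12, adjusted p = 0.388). GSTF11, listed at 0 in mutant 3 days, was called too, without a size that can be given.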

How the results depend on the processing

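The counts of called members moved most with the scaling. For mutant against WT at 3 days, 20 members were higher with median-of-ratios scaling and 21 with quantile normalization, against 11 on the deposited scale. For the difference of responses, 19 were higher under each of them, against 9, and 15 and 13 were lower, against 23. Median-of-ratios scaling moved the tau sums to 1400 TPM in mutant 3 days, 940 TPM in WT 3 days and 1201 TPM in WT control, the phi sums to 942, 913 and 2174 TPM, and the sums of the other classes to 2136, 2289 and 1058 TPM in the same groups. Among the members named by the rule for each comparison, with all those outside tau and phi and the 4 of opposite responses, mutant minus WT at 3 days reversed under this scaling for GSTF10 (0.24), GSTF8 (0.017), GSTT3 (0.24) and GSTT2 (0.15), the WT response for GSTU19 (-0.16) and GSTU23 (-0.12), and the difference of responses for GSTU17 (0.085), GSTF8 (0.26), AT4G19880 (0.13), GSTT3 (0.14) and AT5G44000 (0.36). Quantile normalization reversed mutant minus WT at 3 days for GSTT3 (0.56) and GSTT2 (0.62), the WT response for GSTU23 (-0.093), the mutant response for GSTT3 (0.056) and GSTT2 (0.035), and the difference of responses for AT4G19880 (0.25) and GSTT3 (0.43). Other called members that reversed were GSTU26 at 3 days and GSTU16 for the WT response under both scalings, and GSTF13 (0.57), GSTF14 (0.39) and GSTU23 (0.20) at 3 days with quantile normalization. The cause was not tested. A pseudocount of 0.1 and no filter kept each count within 1.5 times. Without the EF1B genes, 11 members were higher and 23 lower at 3 days. With each library left out in turn, members higher and lower in the mutant ranged from 9 to 11 and 23 to 25 at 3 days and from 10 to 15 and 10 to 14 at control. Those higher and lower at 3 days ranged from 17 to 19 and 17 to 19 in WT and from 14 to 15 and 24 to 27 in the mutant. For the difference of responses they ranged from 8 to 11 and 22 to 24. Same-numbered replicates did not deviate together (correlations of -0.096 to 0.026), so the numbers do not pair the libraries. With the number as a replicate block, 12 were higher and 24 lower at 3 days, 13 and 11 at control, 19 and 18 for WT, 15 and 26 for the mutant, and 10 and 23 for the difference. TPM keeps no depth, so counting error of the low genes could not be given.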
